A study of Mus musculus with 8 samples.

Results

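Granzymes are serine proteases stored in the granules of cytotoxic lymphocytes, where perforin, the pore-forming protein encoded by Prf1, lets them enter a target cell. Granzyme B cuts after aspartate and sets off apoptosis through caspases and Bid. Serpins of clade B are intracellular suicide inhibitors that trap such proteases: Serpinb9 blocks granzyme B, Serpinb9b blocks granzyme M, Serpinb6b blocks granzyme A, and Serpinb1a blocks neutrophil elastase, cathepsin G and proteinase 3. The group described here holds 10 genes, the granzyme genes Gzmb, Gzma and Gzmc, Prf1, the granule membrane gene Nkg7, and the serpin genes Serpinb9, Serpinb9b, Serpinb9g, Serpinb6b and Serpinb1a. Every probe set whose annotation names 1 of them was taken, which gave 13 of the 22626 probe sets on the arrays, controls left out. One of the 13 names several relatives (Serpinb9e, Serpinb9f, Serpinb9g and Serpinb9h) and cannot separate them. The group was chosen by array-level signal, namely the gap of Gzmb between the parental arrays and the presence of Serpinb9g in some tumors and not others. Those patterns are therefore given as a description, with no test.

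The parental cells were FL5.12, a pro-B line from the mouse that needs interleukin-3 to grow, stably transfected with Bfl-1DC and p53DD. Whether the line is 1 clone is not stated. The tumors arose in the spleens of 3 nude mice after injection of these cells into a vein, and so carry the same transgenes. Nude mice lack a thymus but keep natural killer cells, B cells and myeloid cells. The parental cells and each tumor were hybridised to 2 arrays each, 8 arrays in all, of an Affymetrix mouse expression design, and the tumor samples are described as spleen-derived tumor cells with the culture conditions of the cell line. Values below are signals in linear units, and differences are on the scale of log2(signal + 16), which understates changes of dim probe sets. The 40th percentile of an array, between 15.6 and 20.7, served as the line between dim and bright, since detection calls were not used here. Signals of different probe sets cannot be set against each other. The number of arrays limits the precision, and nothing says whether duplicate arrays came from separate cultures or extractions, so their spread may be technical. In bulk RNA, fewer cells of a type and less RNA per cell cannot be told apart.

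Natural killer cell markers were near the bottom of the signal range, whereas 2 T cell receptor chains were bright in the tumors. Of 13 natural killer cell genes with a probe set, 12 were at or below the 40th percentile on all 8 arrays, among them Ncr1, Klrd1, Klrk1 and Eomes, and no gene of the list exceeded a signal of 23.1. The summed signal of that list was 39.99 to 50.3 on parental arrays and 52.0 to 101 on tumor arrays. Of 9 genes of cytotoxic T cells, 5 were likewise dim on all arrays (Cd8b1, Cd3e, Cd2, Cd247 and Ccl5). Cd3g, which encodes part of the CD3 complex, rose from 39.0 ± 5.86 (SD, n = 2 arrays) to 1233 ± 338 (SD, n = 3 tumors; limma adjusted p = 0.00112, but 0.0561 without parental replicate 2 and 0.105 within arrays of number 1). Cd3d, another CD3 chain, read 1.88 ± 0.449 and 421 ± 290 (4.21, adjusted p = 0.0729, and 5.84e-05 with all 8 arrays and the replicate number as a block), and passed the filter on low signal only through its tumor arrays. Over those 9 genes, the summed signal went from 71.8 to 78.9 on parental arrays to 871 to 2600 on tumor arrays. Nearly all of the tumor sum was Cd3d and Cd3g, which read 732 and 1821 on tumor 3 array 2, the array with the sum of 2600. The sum therefore shows no rise of the list as a whole. Of 11 pro-B cell genes, 6 were dim on all arrays (Vpreb1, Ebf1, Rag1, Rag2, Dntt and Blnk), so the signal of this list came mainly from Cd79a and Cd79b. The sum was 239 to 241 on parental arrays and 454 to 637 on tumor arrays. In the limma comparison 1 of 4 tested genes was called higher, against 0.497% of all tested probe sets. That gene was Cd79b (1.31, adjusted p = 0.0414, under 0.05 in 8 of 19 alternatives). Cd79a changed by 0.97 (0.156, and 0.0116 with the block) and Igll1 by 0.45 (0.402).

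The promoters of Gzmb and of 3 serpins are shown because these genes carry the contrasts described below: Gzmb varied widely between arrays, Serpinb9g was bright in 1 tumor, Serpinb9c in 2, and Serpinb9 in none. Each run is the 250 bases before the transcription start in RefSeq, build GRCm38.p6 (chr14:56262335-56262584, minus strand; chr13:33484540-33484789, plus strand; chr13:33159755-33160004, minus strand; chr13:33004291-33004540, plus strand). Capitals mark matches to motifs searched on both strands, which were chosen with the sequences in view: TGANTCA (AP-1), TGTGGT (Runx), TGACGTC (CRE-like) and TTCNNNGAA (STAT).
Gzmb: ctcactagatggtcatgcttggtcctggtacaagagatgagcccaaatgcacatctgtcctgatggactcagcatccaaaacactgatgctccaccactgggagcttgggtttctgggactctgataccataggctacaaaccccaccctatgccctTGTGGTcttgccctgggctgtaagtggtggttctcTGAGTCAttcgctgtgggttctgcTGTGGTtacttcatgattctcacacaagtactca
Serpinb9g: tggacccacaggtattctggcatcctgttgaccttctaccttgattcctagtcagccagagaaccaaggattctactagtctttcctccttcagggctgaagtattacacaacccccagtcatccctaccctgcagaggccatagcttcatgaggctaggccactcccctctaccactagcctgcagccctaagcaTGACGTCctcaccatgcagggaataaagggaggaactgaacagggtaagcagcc
Serpinb9c: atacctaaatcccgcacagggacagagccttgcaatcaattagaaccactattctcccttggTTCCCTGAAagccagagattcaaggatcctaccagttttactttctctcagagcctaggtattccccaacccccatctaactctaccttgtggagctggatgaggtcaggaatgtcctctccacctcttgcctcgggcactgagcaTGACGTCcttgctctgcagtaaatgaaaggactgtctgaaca
Serpinb9: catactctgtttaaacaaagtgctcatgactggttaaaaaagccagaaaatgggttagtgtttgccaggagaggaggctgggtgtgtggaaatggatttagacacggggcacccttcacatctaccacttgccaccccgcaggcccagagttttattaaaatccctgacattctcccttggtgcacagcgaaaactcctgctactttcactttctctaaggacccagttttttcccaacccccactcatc

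The Gzmb promoter held 1 AP-1 match (-58 to -52 from the start) and 2 Runx matches (-93 to -88 and -34 to -29). The Serpinb9g and Serpinb9c promoters each held 1 CRE-like match, at -54 to -48 and -42 to -36, and Serpinb9c also a STAT match at -188 to -180. None of these matches overlapped another. In the Serpinb9 window none of the 4 motifs was found. The matches did not follow brightness. Gzmc, dim on all arrays, also held the CRE-like letters (-57 to -51). Serpinb6a, bright in tumors 1 and 3, held a STAT match (-77 to -69) and no CRE-like match. Runx letters were also found in the promoters of the dim genes Gzma, Gzmc and Prf1. Of the 32851 promoters in the table, 6.75% held the AP-1 letters, 2.78% the CRE-like letters and 7.02% the STAT letters in the same window, and 4614 promoters held the Runx letters. Serpinb9g was 95.9% identical to Serpinb9e over 246 aligned bases and 95.4% identical to Serpinb9f over 239, and both also held the CRE-like letters. Against Serpinb9c the identity was 72.8% over 228 aligned bases, and against the unrelated Gzmb promoter 71.7% over 145. These percentages count only the aligned bases and cannot be ranked against each other. The alignment score, which rewards matches and penalises mismatches and gaps, was 226.0 for Serpinb9e and 217.0 for Serpinb9f. It was 76.0 for Serpinb9c and 8.5 for Gzmb. A match is a description of letters and shows no binding.

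**Figure D1:**
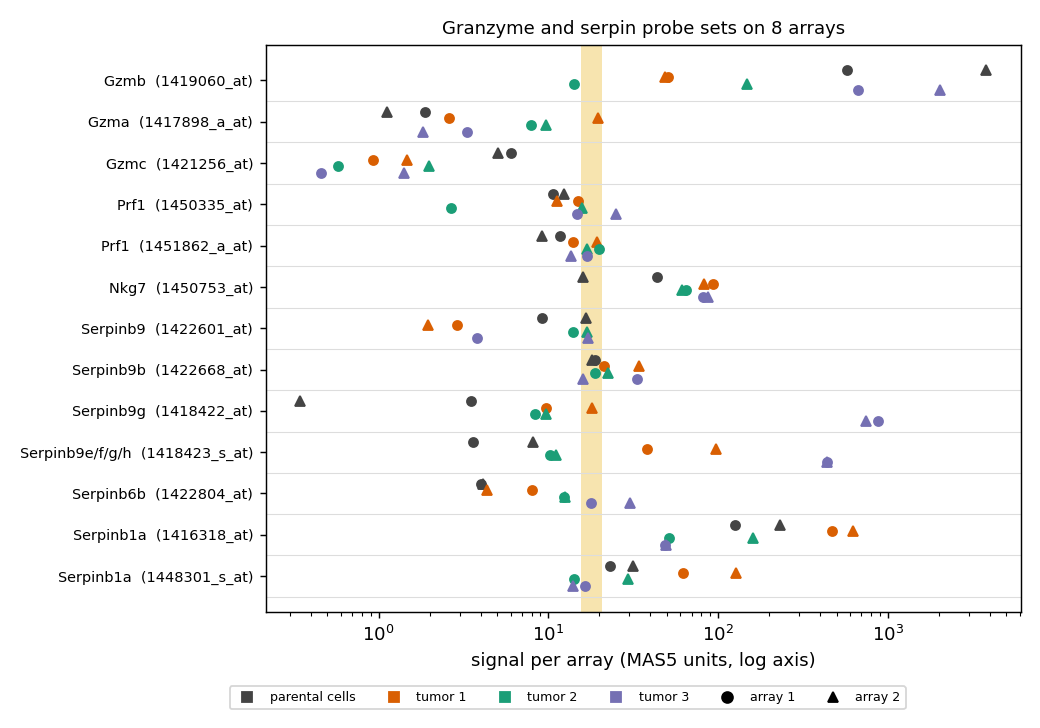
Signal of the 13 probe sets (rows) on the 8 arrays, on a log axis; colours are the 4 sources, circles array 1, triangles array 2, and the shaded band spans the 40th percentiles of the arrays (15.6 to 20.7). Gzmb spans 14.2 to 3808, Serpinb9g is bright in tumor 3 only, and Gzma, Gzmc, both Prf1 probe sets and Serpinb9 lie in or below the band on nearly every array.

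Gzmb was abundant in the parental cells, at 576 on parental array 1 and 3808 on parental array 2. Tumor 1 gave 50.9 and 48.6, tumor 2 gave 14.2 and 149, and tumor 3 gave 673 and 2021. Tumor 3 thus lay within the parental range, while all 4 arrays of tumors 1 and 2 lay below both parental arrays. Tumors 1, 2 and 3 differed from parental cells by -4.52, -4.41 and -0.34 (log2), and all tumors together by -3.09 ± 1.37 (SE). Array 2 exceeded array 1 by 2.69 in parental cells, 2.45 in tumor 2 and 1.57 in tumor 3, but by -0.05 in tumor 1. Among all 14893 tested probe sets the median size of the gap between the parental arrays was 0.27, 46 of them (0.309%) were at least 4-fold apart on this scale, and 14, Gzmb included, differed by at least as much as Gzmb. Since Gzmb was chosen for this gap, its rank is a description and no test. Within arrays of number 1, tumor 3 (673) stood above the parental array (576), whereas within number 2 it stood below (2021 against 3808). For tumors 1 and 2 the direction was the same within both numbers. The difference over all tumors became -1.75 without parental replicate 2, and -4.44 without parental replicate 1.

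The other proteases and the pore former were dim. Gzma, a tryptase-like granzyme, ranged from 1.13 to 19.6 over the 8 arrays and Gzmc, a chymase-like relative next to Gzmb, from 0.457 to 6.02, and neither exceeded the 40th percentile on any array. The highest Gzma value was that of tumor 1 array 2, and its duplicate read 2.62. The Prf1 probe sets ranged from 2.69 to 25.2 and from 9.21 to 19.8, each above the percentile on 1 array. These 4 probe sets, with those of Serpinb9 and Serpinb6b, did not pass the filter on low signal and were not tested, which left 7 of 13. Of 10 further genes of the granzyme family and granule, fixed as a list, Gzmd, Gzme, Gzmf, Gzmg, Gzmn and Ctsh were dim on all arrays. Gzmk, granzyme K, read 7.15 and 7.29 in parental cells and 9.13 to 27.95 on tumor arrays. It was above the percentile on 1 array and was not tested. Gzmm, granzyme M, was close to dim (15.2 to 32.5 over the arrays) and changed by 0.22 ± 0.16 (limma adjusted p = 0.55). Srgn, the proteoglycan that packs granule proteases, stood at 3428 ± 580.1 in parental cells and 4331 ± 290.5 in tumors (0.33 ± 0.17 SE, limma adjusted p = 0.416), and Ctsc, the protease that activates granzymes, at 1210 ± 19.6 and 1451 ± 304 (0.24 ± 0.21, adjusted p = 0.626).

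Gzmb lies at the end of a run of granule protease genes on chromosome 14 that begins with the mast cell chymase gene Cma1, and 15 protein-coding genes of that run have a probe set. Of its 16 probe sets only those of Gzmb, Cma1, Ctsg and Mcpt8 passed the filter, and no other exceeded a signal of 16.9. Cma1 read 180 and 2047 on the parental arrays. The arrays of tumor 1 gave 156 and 294, those of tumor 2 gave 71.0 and 420, and those of tumor 3 gave 32.8 and 406. It was therefore higher on array 2 of every source, and its change in tumors of -1.77 ± 0.88 did not pass (adjusted p = 0.391, and 0.0428 in the fit of all 8 arrays with the replicate number as a block). It was -0.07 without parental replicate 2 and -3.47 without parental replicate 1. It was not brighter in tumor 3 than in the other tumors. Ctsg, cathepsin G, followed another order, with 28.5 and 72.4 on parental arrays. The values were 356 and 224 for tumor 1, 49.8 and 122 for tumor 2, and 28.2 and 26.7 for tumor 3. Mcpt8, a basophil protease, read 10.1 and 48.8, then 80.9 and 116, 5.51 and 19.3, and 1.87 and 3.16. Ctsg and Mcpt8 were thus highest in tumor 1 and lowest in tumor 3, the tumor in which Gzmb was highest. The test between tumors gave Ctsg an adjusted p of 0.0531 (limma F test, and 0.0233 with the block). Mcpt8 passed the filter only through parental array 2 and both arrays of tumor 1, so its values are given with no test.

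**Figure D2:**
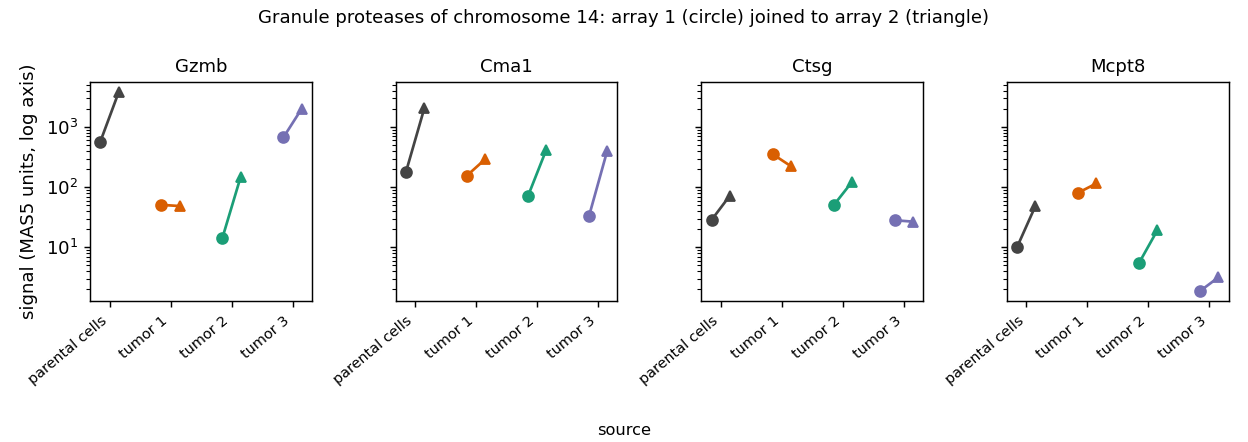
Signal (log axis) of Gzmb, Cma1, Ctsg and Mcpt8, 1 probe set each, in the 4 sources; circles are array 1, triangles array 2, joined by a line. Gzmb is high in parental cells and tumor 3, Cma1 is higher on array 2 than on array 1 in every source, and Ctsg and Mcpt8 are highest in tumor 1.

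The probe set of Gzmb moved most like 2 probe sets of Gpx4, the lipid peroxide reductase, and 1 of Eif3e, a translation initiation subunit (Pearson r = 0.977, 0.976 and 0.97 over the 8 arrays, which come from 4 sources). The first Gpx4 probe set read 1964 and 2793 on parental arrays. Tumor 1 gave 1553 and 1457, tumor 2 1325 and 1506, and tumor 3 2170 and 2324. Its span was far narrower than that of Gzmb. Cma1 reached an r of 0.513 with Gzmb. Some markers of mast cells and basophils also differed between the parental arrays: the summed signal of 11 such genes was 973 on array 1 and 4083 on array 2, and 2101 to 10310 on tumor arrays, with Kit, Ms4a2, Hdc, Tpsb2 and Mcpt4 dim on all arrays. Most of the parental gap was Cma1 itself, followed by Cpa3 (11.7 and 595) and Gata2 (742 and 1169). Of the sum of 10310, on tumor 1 array 2, Fcer1a gave 6654. The part of these markers in the Gzmb values was not tested.

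Nkg7, a granule membrane protein that supports degranulation, was brighter on every tumor array than on either parental array. It read 43.7 and 16.1 in parental cells. The arrays of tumor 1 gave 94.0 and 82.8, those of tumor 2 gave 64.7 and 61.7, and those of tumor 3 gave 81.3 and 87.4. The means were 29.9 ± 19.5 (SD, n = 2 arrays) and 78.7 ± 13.5 (SD, n = 3 tumors). Of all tested probe sets, 9.35% had the 6 tumor arrays above both parental arrays and 8.27% had them below. The change of 1.10 ± 0.29 (SE) did not pass (limma adjusted p = 0.156, with 0.135 to 0.554 over 17 alternatives) and passed only in the fits that counted all 8 arrays as separate values, with the replicate block (adjusted p = 0.0153) or without it (0.0474). It was 0.65 without parental replicate 2 and 1.55 without parental replicate 1, and 0.68 and 1.53 within arrays of number 1 and number 2. The test between the 3 tumors did not pass for Nkg7 (F test adjusted p = 0.823).

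Across the 4 tested probe sets of members other than Gzmb and Serpinb9g, 0 passed limma's comparison of tumors with parental cells, against 0.698% of all tested probe sets (104 of 14893, 74 or 0.497% higher and 30 or 0.201% lower, or 67 and 44 with each array centred on its median). At an unadjusted p under 0.05 there was 1, Nkg7, against 15.5% of all tested probe sets. With the replicate block Nkg7 was the 1 called, in a fit that called 13.1% of all tested probe sets. In the test between tumors 1 of the 4 passed, a probe set of Serpinb1a, against 1.26% of all tested probe sets (188 of 14893). With the block 2 of the 4 passed, both of Serpinb1a, against 5.28% of all.

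Serpinb1a, the inhibitor of neutrophil granule proteases, went up in 1 tumor and down in another. Its brighter probe set read 127 and 232.5 in parental cells. The values were 469.8 and 627 for tumor 1, 51.5 and 161 for tumor 2, and 49.0 and 49.6 for tumor 3. Both arrays of tumor 1 lay above both parental arrays and both of tumor 3 below them, while tumor 2 straddled the lower parental value. The tumors differed by 3.10 (log2) from highest to lowest (limma F test over duplicate arrays, adjusted p = 0.0366). The call was lost without either parental array (0.0518), either array of tumor 1 (0.1 and 0.164) or of tumor 3 (0.18 and 0.171), with no filter (0.0981) and with a pseudocount of 1 (0.102), and ranged from 0.00529 to 0.18 over 17 alternatives, the lowest with the replicate block. The dimmer probe set kept the order of the tumor means, with 23.1 and 31.4 in parental cells. Tumor 1 gave 62.4 and 128, tumor 2 14.1 and 29.5, and tumor 3 16.6 and 14.1 (F test adjusted p = 0.0708, and 0.0144 with the block). Its order of tumors 2 and 3 rested on array 2 of tumor 2. Array 1 of tumor 2 and both arrays of tumor 3 were below the 40th percentile. Averaged over tumors the probe sets differed from parental cells by -0.25 ± 0.84 and 0.21 ± 0.50 (adjusted p = 0.922 and 0.881). Of the proteases that it inhibits, only Ctsg had the same order of tumors, with means of 290.3, 85.7 and 27.5 in tumors 1, 2 and 3. Prtn3, proteinase 3, stood at 444 ± 397 in parental cells and 1751 ± 563 in tumors (2.22 ± 0.58, adjusted p = 0.159, and 0.0154 with the block), and Elane, neutrophil elastase, at 11.2 ± 3.42 and 37.0 ± 9.40 (0.94 ± 0.20, 0.121, and 0.0286 with the block). In tumors 1, 2 and 3 the means of Prtn3 were 1180, 1768 and 2306, the reverse of the order of Serpinb1a. Those of Elane were 27.7, 46.5 and 36.8, lowest in tumor 1. Neither gene passed the F test between tumors (adjusted p = 0.773 and 0.743), and Elane passed the filter only through its tumor arrays.

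**Figure D3:**
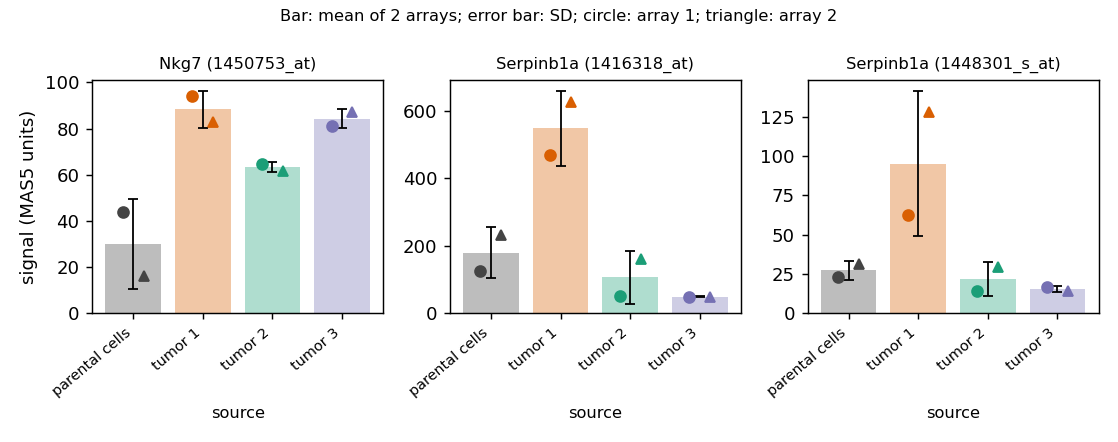
Signal of the Nkg7 probe set and of both Serpinb1a probe sets in the 4 sources; bars are means of 2 arrays, error bars SD, circles array 1 and triangles array 2. Nkg7 is higher in each tumor (61.7 to 94.0) than on the parental arrays (16.1 and 43.7), and both Serpinb1a probe sets are highest in tumor 1.

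Serpinb9g, a close relative of Serpinb9, was bright in tumor 3 only. Its own probe set read 3.52 and 0.345 in parental cells. The arrays of tumor 1 gave 9.74 and 18.1, those of tumor 2 gave 8.35 and 9.65, and those of tumor 3 gave 881 and 743. The tumor 3 arrays were the only ones above the 40th percentile, so the differences of 0.73, 0.49 and 5.53 of tumors 1, 2 and 3 from parental cells depend on the pseudocount. The probe set shared by Serpinb9e, Serpinb9f, Serpinb9g and Serpinb9h read 3.58 and 8.13 in parental cells. The values were 38.1 and 98.0 for tumor 1, 10.2 and 11.2 for tumor 2, and 438 and 440.3 for tumor 3. It was thus also above the percentile in tumor 1, where the probe set specific to Serpinb9g was not. Duplicate arrays of tumor 3 lay within 0.24 (log2) of each other on both probe sets. The average over tumors of 2.25 ± 1.43 (SE) became 0.61 without tumor 3, and that of the shared probe set, 2.18 ± 1.04, became 1.075.

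The remaining members were dim or close to it. Serpinb9, the granzyme B inhibitor itself, ranged from 1.97 to 17.2 and exceeded the percentile on 1 array, with tumor 1 lowest at 2.89 and 1.97. Serpinb9b ranged from 16.04 to 34.2 and changed by 0.21 ± 0.16 (adjusted p = 0.567, between tumors 0.939). Serpinb6b read 4.03 and 4.11 in parental cells. Tumor 1 gave 7.98 and 4.33, tumor 2 12.4 and 12.5, and tumor 3 17.9 and 30.5. All its tumor arrays were above the parental arrays, yet only 1 of the 8 was above the percentile.

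The 5 serpin members lie on chromosome 13 in a cluster of 16 protein-coding genes from Serpinb1a to Serpinb6a, 12 of which have a probe set. Serpinb9c, a relative of Serpinb9g in the same cluster that is no member, was bright in tumors 1 and 3 on both its probe sets. The first read 9.72 and 9.55 in parental cells. The arrays of tumor 1 gave 46.3 and 57.1, those of tumor 2 gave 7.06 and 6.22, and those of tumor 3 gave 76.7 and 58.7. The second read 0.939 and 0.604, then 111 and 92.3, 1.07 and 9.72, and 183 and 93.8. Both probe sets passed the filter only through the 4 arrays of tumors 1 and 3, so these values are a description. In the fit with no filter the second had an F test adjusted p of 0.0367 between tumors. With the filter and a pseudocount of 1 it was 0.0773, so the call depends on how signals near the floor are treated. Serpinb6a, at the other end of the cluster, read 25.8 and 71.2 in parental cells. The values were 119 and 241 for tumor 1, 38.8 and 42.7 for tumor 2, and 279.9 and 395 for tumor 3 (between tumors 0.0528, and 0.00465 with the block; against parental cells 0.421, and 0.00803 with the block). Tumor 2 was thus the tumor in which Serpinb9c, Serpinb9g, Serpinb6a and the shared probe set were all at or near the parental level, and tumor 3 the one in which they were highest. Serpinb1a, at the near end, had its lowest means there. Serpinb1b and Serpinb6c stayed below the percentile on all arrays.

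**Figure D4:**
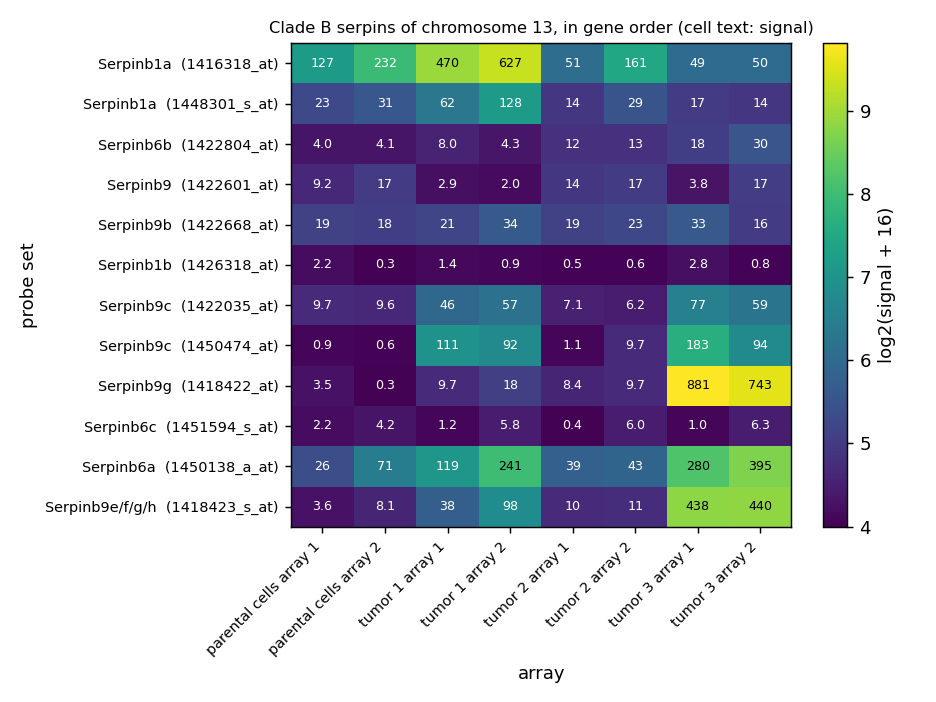
Colour shows log2(signal + 16) and cell text the signal of the 12 probe sets of the serpin cluster (rows, in gene order, the shared probe set last) on the 8 arrays (columns). Serpinb1a is brightest in tumor 1, Serpinb9c in tumors 1 and 3, and Serpinb9g with the shared probe set in tumor 3.

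The probe sets that moved most like that of Serpinb9g were those of Ryk, a Wnt co-receptor, Baiap2l1, an actin regulator, and Camk1, a calcium-dependent kinase (r = 0.993, 0.991 and 0.991 over 8 arrays from 4 sources). Ryk read at most 1.72 outside tumor 3 and 98.5 and 96.0 within it. Serpinb6a and Serpinb9c reached r of 0.79 and 0.701, and Gzmb 0.381.

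Other genes that act with granzymes were set beside the share of all tested probe sets called, 0.698% against parental cells and 1.26% between tumors. At those shares a count of 0 in lists this short says little about the lists. In the granule release list 0 of 8 tested genes were called. Rab27a, the vesicle GTPase that docks cytotoxic granules, had the lowest p, at 31.6 ± 15.4 in parental cells and 103 ± 31.5 in tumors (1.28 ± 0.30, adjusted p = 0.13, and 0.00144 with the block), followed by the actin regulator gene Dock8 (-0.43, 0.255) and the vesicle fusion gene Vamp7 (0.33, 0.38). Of 11 granzyme B substrates and caspases 0 were called, with a median change of -0.11 against 0.008 over all tested probe sets. With the block 3 fell, in a fit that called 5.71% of all tested probe sets lower, namely Bid, the substrate that links granzyme B to mitochondria (-0.65 ± 0.17, adjusted p = 0.156, and 0.0289 with the block), Dffa, the inhibitor of the apoptotic nuclease (-0.51, 0.241 and 0.0367), and the DNA repair kinase gene Prkdc (-0.62, 0.225 and 0.0169). Among 15 tested regulators of granzyme genes 0 were called, the lowest p being those of Myb (0.40, 0.324), Jun (0.35, 0.383) and Pim1 (0.58, 0.413, and 0.0282 with the block), and the lymphocyte factors Tbx21 and Eomes were dim on all arrays. Of 3 tested clade B serpins outside the group 0 were called against parental cells and 1 between tumors, Serpinb9c, which passed the filter only through the tumors where it was bright. The third, Serpinb5, changed by 0.47 (adjusted p = 0.479). It passed the filter only through the arrays of tumor 3 (26.8 and 22.4, against 2.51 to 9.5 on the other arrays), so it was dim or close to it throughout. Of 5 tested myeloid serine proteases 0 were called in either test. With the block 2 were higher and 1 lower, against 7.4% and 5.71% of all tested probe sets. Between tumors 2 were called with the block, against 5.28% of all. The 5 include Mcpt8 and Elane, which passed the filter only through arrays where they were bright, so these counts are no independent support. Of the neutrophil markers 2 of 10 tested rose, Mpo and Ngp (adjusted p = 0.000279 and 0.0414), against 0.497% of all tested probe sets. Mpo passed in all 19 alternatives and Ngp in 6 of 19, with an adjusted p of up to 0.522, and not without tumor 1 (0.0754), tumor 3 (0.0907) or either parental array (0.181 and 0.187). With the block 6 of the 10 were higher, among them Cd177 (0.0253) and Mmp9 (0.0323), against 7.4% of all tested probe sets. Of the 10, Cd177, Elane, Ltf, S100a8 and S100a9 passed the filter only through tumor arrays. Mpo and Mmp9 also needed tumor arrays to pass it, since in parental cells they exceeded the percentile on array 2 only (16.4 and 17.6). These counts are therefore no independent support. Mmp9 was bright mainly in tumor 3, with differences from parental cells of 0.145, 0.607 and 2.249 in tumors 1, 2 and 3. The summed signal of the list went from 332 and 838 on parental arrays to 4151 to 9924 on tumor arrays; their part in the serpin values was not tested.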

How the data were processed

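RNA of parental FL5.12 cells and of 3 splenic tumors was measured on 8 arrays. Each deposited value is the linear intensity of a probe set, computed by the authors with MAS5 per the submitters' processing notes. Its version is not given in the sources used here. Trimmed means were 150.06 on every array. Symbols were taken from the annotation of the platform and brought up to date by gene ID through RefSeq (GRCm38.p6) for 20364 probe sets; 691 probe sets with several symbols kept their joined names, and 1555 had none. Promoters are from RefSeq; 9 of 10 members had an entry, and they were aligned with Biopython 1.88.

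A probe set was tested where at least 2 arrays gave a signal above their own 40th percentile (14893 of 22626, with 64 controls left out). Tumors were compared with parental cells by limma 3.58.1 in R 4.3.3 on log2(signal + 16), with the mean of each tumor's 2 arrays as 1 value, and Benjamini-Hochberg adjustment over all tested probe sets. The F test between tumors used all 8 arrays and the spread between duplicate arrays. Same-numbered arrays deviated together (correlation 0.435 to 0.594 in each of 6 pairs of sources). The numbers were therefore taken to pair the arrays, and the fit with a replicate block is printed where it changes a call. That fit counts duplicate arrays as separate values. Both tests were checked on simulated data in which arrays of the parental cells varied independently. With a simulated difference shared by both parental arrays, the comparison of tumors with parental cells called unchanged probe sets, so its p-values are too small if both arrays share a culture or extract. Alternatives were other pseudocounts, filters, scalings, priors, 1 probe set per gene, other uses of the duplicates and leaving out samples.

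The text names all members, up to 3 genes of lowest p per list, the 3 probe sets most correlated with Gzmb and with Serpinb9g, and, chosen after their values were seen, the bright genes of both loci. The members and lists were chosen with earlier results of these data known.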

Additional observations from a re-analysis of the deposited data

Results flagged for a closer look

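Of the 188 probe sets called between the tumors in the limma F test over duplicate arrays, the 4 given here belong to a member or to a gene of lowest p in its list. Serpinb1a was highest in tumor 1 and lowest in tumor 3 (adjusted p = 0.0366). Serpinb9c was bright in tumors 1 and 3 and at the parental level in tumor 2 (adjusted p = 0.0101, and 0.0773 with a pseudocount of 1). It passed the filter on low signal only through the arrays of tumors 1 and 3, so this p is no independent support for the difference. Cd3d, a T cell receptor chain, was bright in all tumors and lowest in tumor 2 (adjusted p = 0.021; 0.00318 to 0.131 over 17 alternatives). Fcer1a, a chain of the IgE receptor of mast cells and basophils, was bright in tumor 1 (adjusted p = 0.0147; 0.000678 to 0.165 over 17 alternatives). The spread behind these tests is that between the 2 arrays of a source, not between mice.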

How the results depend on the processing

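The count of probe sets called between tumors and parental cells was 104. It was 45 with a pseudocount of 64, 22 with no filter, 65 with 1 probe set per gene, 62 with the first tumor arrays only, 5 and 12 within arrays of number 1 and number 2, 489 with all 8 arrays and no replicate block, and 1952 with the replicate block. Leaving out 1 sample gave 9 to 94, with 16 and 9 when a parental array was left out, fits that assume the lone array to vary like the tumors. The count called between tumors, 188, was 88 with a pseudocount of 1, 87 with no filter and 787 with the replicate block, and 53 to 136 without 1 array, lowest without tumor 3 replicate 2. The cause of these shifts was not tested, apart from the smaller number of values in some fits.

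Of 244 values of members under alternatives, 213 kept direction and side of the threshold or moved by less than the spread between duplicates. The uncalled change of Serpinb1a against parental cells crossed 0 in 6 cases. Its brighter probe set (-0.25) gave 0.055 on the second tumor arrays, 0.154 without parental replicate 2, and -1.155 to 0.393 without 1 tumor, above 0 without tumor 2 (0.022) and tumor 3 (0.393). Its dimmer one (0.21) gave -0.019 on the first tumor arrays and -0.34 to 0.541 without 1 tumor, lowest without tumor 1. Fcer1a (1.82) gave -0.559 to 3.571 without 1 sample, below 0 without tumor 1. The replicate block changed no call of a member other than those printed beside the result. Members below the filter have no reliable fold, and signal over background limits what can be said of Gzma, Gzmc, Prf1, Serpinb9 and Serpinb6b.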
